A study of Mus musculus with 9 samples.

Results

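The MHC class II genes are described here in mouse CD8+ T cells that had been cultured with one of 3 cytokines, IL-2, IL-15 and IL-21. They are 9 genes, H2-Aa, H2-Ab1, H2-Eb1, Cd74, Ciita, H2-DMa, H2-DMb1, H2-Oa and H2-Ob, taken by symbol from the 17498 genes named on the arrays. These genes were read by 13 of the 36547 probes, with 3 probes for H2-Ab1, 2 each for Cd74 and H2-Ob and 1 for each of the others. Treated CD8+ T cells had received one of these at 10 ng/ml for 4 days, and untreated CD8+ T cells had been cultured for the same 4 days without cytokine. Treated and untreated cells alike were restimulated for 4 h in the absence of cytokine before RNA extraction. Each of the 9 arrays compared treated with untreated cells in 2 colours, with 3 biological replicates per cytokine. The labels give no strain, age, sort purity or restimulation agent.

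MHC class II molecules are pairs of alpha and beta chains that display peptides from endosomes to CD4 T cells. H2-Aa and H2-Ab1 encode the chains of I-A, and H2-Eb1 encodes the beta chain of I-E. The invariant chain Cd74 guides new class II molecules to endosomes, the peptide exchange factor H2-DM loads them, and H2-O restrains H2-DM. In the mouse these genes are transcribed mainly in dendritic cells, B cells and macrophages, under the coactivator Ciita, and mouse T cells are known for making little class II.

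The deposited values are log ratios, read here as log2 of cytokine-treated over untreated cells, so a value below 0 means less RNA after culture with the cytokine. This direction is likely rather than settled. The labels place treated cells in Cy5 on every array, whereas the series design text has the dyes exchanged in replicates 2 and 3. The sign was taken as common to all arrays because IL-21 minus IL-2, in which a dye effect cancels, correlated between replicates at 0.201, 0.149 and 0.108 over all probes. For IL-15 minus IL-2 these correlations were 0.041, -0.037 and -0.025. If the order of the channels were the reverse, every sign below would turn. If only replicates 2 and 3 ran the other way, the values of replicate 1 alone would keep their sign. Arrays of 1 replicate correlated at 0.162 to 0.665 over all probes and arrays of 1 cytokine at -0.279 to 0.226. The 3 pairs of arrays below -0.3, the lowest at -0.352, were all of opposite dye orientation per the series design text. A ratio holds no level, so the presence of Cd8a or of any class II RNA could not be checked, and fewer cells of a type cannot be told apart from less RNA per cell.

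On GRCm38.p6 the class II chain, H2-DM and H2-O genes lie together on chromosome 17, and Ciita and Cd74 lie elsewhere. H2-Oa is at chr17:34092379-34095234, H2-DMa at chr17:34119693-34139101, H2-DMb1 at chr17:34153191-34160229 and H2-Ob at chr17:34238905-34245908. They are followed by H2-Ab1 at chr17:34263227-34269418, H2-Aa at chr17:34282744-34287823 and H2-Eb1 at chr17:34305867-34316674. Ciita is at chr16:10480014-10531064.

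Class II promoters carry an X box, bound by RFX, and a Y box, bound by NF-Y, on which Ciita assembles. Promoters of 6 of the 9 genes were in the RefSeq table of GRCm38.p6, each reaching from 250 bases before a start site to 50 bases after it. They were searched on both strands for CTNGNAAC, as a core of the X box, and for TGATTGG, as a core of the Y box, 2 motifs that do not overlap each other. The letters of the X core were set after these promoters had been read, so its presence in them is no finding. The 80 bases from -110 to -31 are shown for the 5 genes with a Y core, because the layout of the cores is what these genes share. Capitals mark the cores.
H2-Aa, chr17:34287854-34287933, minus strand: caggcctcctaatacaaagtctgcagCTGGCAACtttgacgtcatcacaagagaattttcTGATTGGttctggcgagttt
H2-Eb1, chr17:34305757-34305836, plus strand: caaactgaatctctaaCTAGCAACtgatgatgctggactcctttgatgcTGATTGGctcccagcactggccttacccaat
H2-DMb1, chr17:34153081-34153160, plus strand: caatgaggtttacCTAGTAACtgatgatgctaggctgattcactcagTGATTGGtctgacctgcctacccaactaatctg
H2-Ob, chr17:34238795-34238874, plus strand: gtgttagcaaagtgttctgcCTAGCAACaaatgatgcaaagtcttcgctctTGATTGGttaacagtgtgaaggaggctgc
H2-Oa, chr17:34092269-34092348, plus strand: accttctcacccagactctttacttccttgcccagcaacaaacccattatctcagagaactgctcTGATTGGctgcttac

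H2-Aa, H2-Eb1, H2-DMb1 and H2-Ob held the X core upstream of the Y core, with gaps of 26, 25, 26 and 23 bases between them. Of 32851 promoters of this length, 13.2% held the X core and 7.82% the Y core, and 15 (0.0457%) held both on the strand of the gene in this order with a gap of 10 to 40 bases. The 4 class II promoters were among those 15, but the letters of the X core had been set after reading them. Their place among the 15 is therefore no finding either. H2-Oa matched the Y core alone, and neither string of letters was in the windows of H2-DMa. Those windows, chr17:34122582-34122881 and chr17:34125268-34125567, lie inside the span given above for the gene, so the start of that span was not searched. Upstream of its Y core H2-Oa has ccagcaac, which differs from CTNGNAAC by a C in place of the T. A missing match to these letters therefore does not show that an X box is missing. The genes with both cores differed in their signs: H2-Aa and H2-Eb1 were below 0 on all 9 arrays, while H2-DMb1 and H2-Ob were below 0 on 6 of 9 each. Over the arrays H2-Eb1 correlated with H2-DMb1 at 0.772 and H2-Aa with H2-Ob at -0.722, without a test.

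The alpha chain gene H2-Aa had the lowest mean of the 9 genes after IL-2 and after IL-15. Its log2 ratio with IL-2 was -0.72, -1.95 and -1.90 in replicates 1, 2 and 3. With IL-15 it was -0.60, -1.36 and -1.21, and with IL-21 -0.18, -0.74 and -1.09. All 9 values were below 0, replicate 1 held the value nearest to 0 for each cytokine, and within every replicate IL-2 gave the lowest value and IL-21 the highest. Over all genes 0.874% were below 0 on all 9 arrays and 0.646% followed that order in each replicate. IL-2 replicate 3 was the array with the widest values, with 13.59% of probes beyond 1 in either direction, against 6.47% or less on every other array.

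With IL-2 H2-Aa fell by 1.53 on the log2 scale, with a standard error (SE) of 0.27 (n = 3 arrays, limma adjusted p = 0.0472, 95% interval -2.15 to -0.91), or 2.88-fold. It was 1 of 7 genes lower at an adjusted p of 0.05, 0.04% of those tested, and the only class II gene among them. The call lay near the threshold. It was lost in 10 of 12 fits that left out a replicate or an array, with adjusted p from 0.0247 to 0.771, and held without replicate 1 (0.0294) and without IL-2 replicate 1. Leaving out any 1 array of IL-15 or IL-21 left the mean at -1.53 with adjusted p from 0.0534 to 0.0978. Quantile normalization moved the means of H2-Aa to -2.24 with IL-2 (adjusted p = 0.202) and to -1.81 with IL-15 (adjusted p = 0.347). With the sign of replicates 2 and 3 turned the mean was 1.04 (adjusted p = 0.527).

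After IL-15 the mean of H2-Aa was -1.06 ± 0.27 (SE, n = 3 arrays, limma adjusted p = 0.264), and with the replicate number as a fixed block the adjusted p was 0.0275. With the replicate as a random effect, at an estimated correlation of 0.432 within replicates, the adjusted p was 0.179, so that the call was lost. For IL-21 it was -0.67 ± 0.27 (SE, n = 3 arrays, adjusted p = 0.819, or 0.144 with the block). The mean of IL-21 lay 0.86 ± 0.39 (SE) above that of IL-2, an unpassed difference (adjusted p = 0.845), although IL-21 was above IL-2 by 0.55, 1.21 and 0.82 in the 3 replicates. With the block the SE of IL-21 minus IL-2 was 0.18 and its unadjusted limma p 0.00195. It did not pass over all genes with the block either (limma adjusted p = 0.112). IL-15 minus IL-2 was 0.12, 0.59 and 0.69 in replicates 1, 2 and 3, a mean of 0.47 ± 0.39 (SE, limma adjusted p = 0.9997). IL-21 minus IL-15 was 0.43, 0.63 and 0.12, a mean of 0.39 ± 0.39 (SE, limma adjusted p = 0.9994). With the block the SE of these differences was 0.18 and their unadjusted p 0.033 and 0.0621, but neither passed over all genes (limma adjusted p = 0.898 and 0.46).

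**Figure D1:**
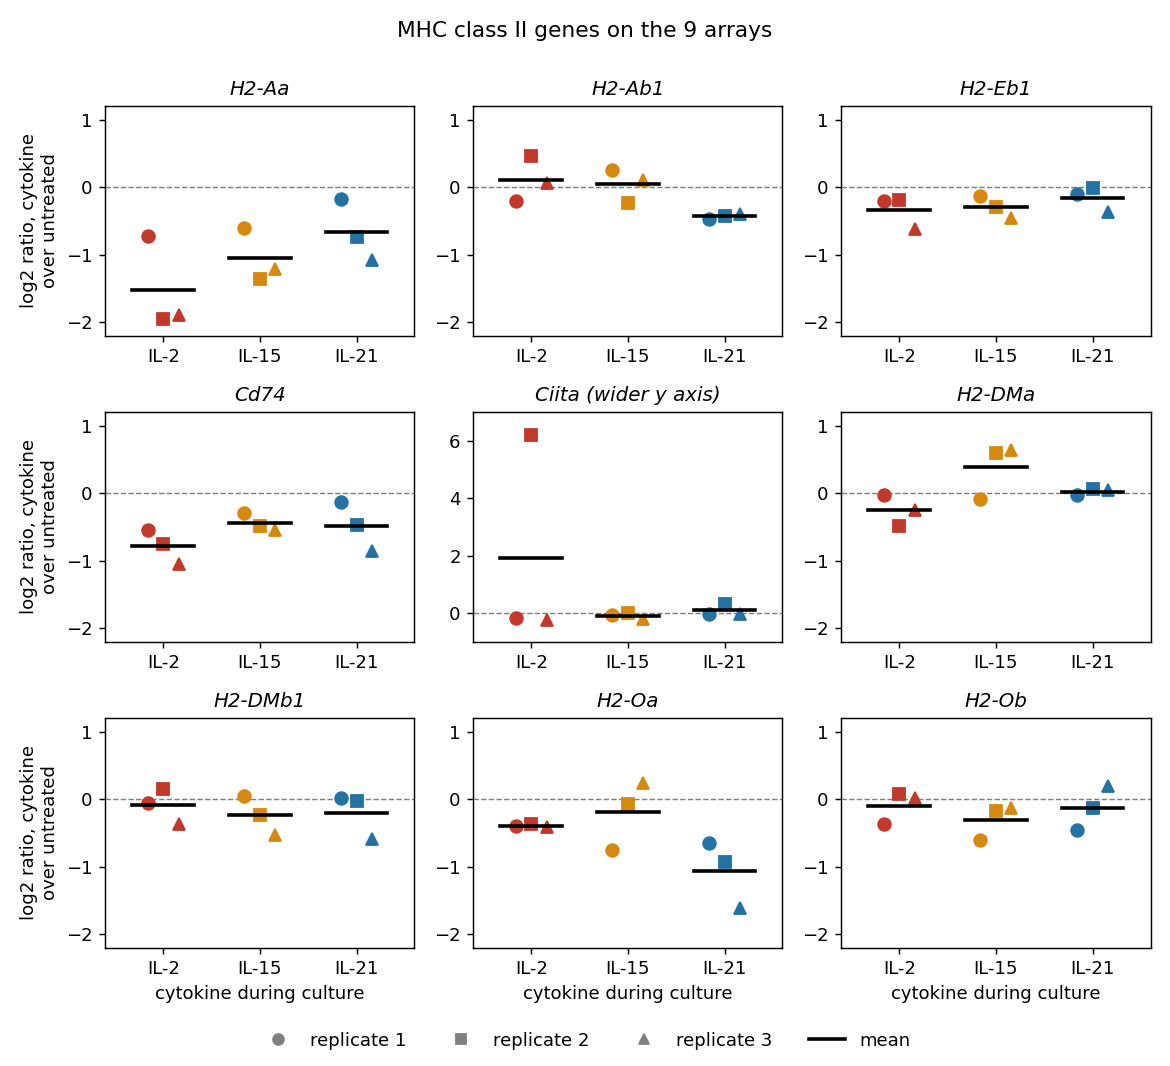
Each point is the log2 ratio of a class II gene, cytokine-treated over untreated cells, on 1 of 9 arrays, with the replicate by symbol and the mean of 3 arrays as a bar. H2-Aa, H2-Eb1 and Cd74 lie below 0 on all arrays, and the y axis of Ciita is wider to hold the value of 6.20.

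H2-Ab1, the partner chain of H2-Aa in I-A, did not follow it. The mean of its 3 probes was -0.20, 0.47 and 0.06 with IL-2 in replicates 1, 2 and 3, and 0.26, -0.23 and 0.10 with IL-15. With IL-21 it was -0.47, -0.42 and -0.40. The 3 IL-21 arrays lay below every other array, while IL-2 and IL-15 each had values on both sides of 0.

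The IL-21 mean of H2-Ab1 was -0.43 ± 0.15 (SE, n = 3 arrays, limma adjusted p = 0.755), with 0.11 ± 0.15 for IL-2 and 0.04 ± 0.15 for IL-15. Within replicates 1, 2 and 3, IL-21 minus IL-2 was -0.26, -0.89 and -0.46, and IL-21 minus IL-15 was -0.72, -0.19 and -0.50. The limma differences of -0.54 ± 0.22 (SE, adjusted p = 0.744) and -0.47 ± 0.22 (SE, adjusted p = 0.896) did not pass. The single probes spread more widely than their mean. On IL-21 replicates 1, 2 and 3 probe 1 gave -0.37, -0.61 and -0.98, probe 3 gave -0.42, -0.29 and -0.83, and probe 2 gave -0.61, -0.36 and 0.60. Over the 9 arrays probes 1 and 3 correlated at 0.962, and probe 2 at -0.031 with probe 1 and -0.067 with probe 3, so the gene mean joins a probe that did not move with the others.

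H2-Eb1, the beta chain of I-E, stayed closer to 0 than H2-Aa with the same sign on every array. It had -0.21, -0.18 and -0.62 with IL-2, -0.14, -0.29 and -0.45 with IL-15 and -0.10, -0.02 and -0.37 with IL-21 in replicates 1, 2 and 3. Replicate 3 held its lowest value for each cytokine, and the cytokines overlapped. The means were -0.34 ± 0.14 (SE, limma adjusted p = 0.497), -0.29 ± 0.14 (adjusted p = 0.717) and -0.17 ± 0.14 (adjusted p = 0.881), none of which passed with or without the block.

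Cd74, the invariant chain gene at chr18:60803849-60812652, was below 0 on all 9 arrays as a gene mean. With IL-2 it had -0.55, -0.75 and -1.05 in replicates 1, 2 and 3, with IL-15 -0.29, -0.49 and -0.55, and with IL-21 -0.13, -0.48 and -0.86. IL-2 was the lowest within each replicate, and IL-15 and IL-21 overlapped.

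For IL-2 the mean of Cd74 was -0.78 ± 0.16 (SE, n = 3 arrays, limma adjusted p = 0.0803), and the adjusted p was 0.0173 with the fixed replicate block but 0.0621 with the replicate as a random effect. It was -0.44 ± 0.16 for IL-15 (SE, limma adjusted p = 0.517) and -0.49 ± 0.16 for IL-21 (SE, limma adjusted p = 0.708). Its 2 probes correlated at 0.364. Probe 1 gave -0.62, -1.27 and -1.12 with IL-2, probe 2 gave -0.48, -0.24 and -0.99, and probe 1 was above 0 on IL-21 replicate 1, at 0.04. Tested on their own with IL-2, probe 1 had a limma adjusted p of 0.0672 over all probes and probe 2, at -0.57 ± 0.18 (SE), one of 0.281.

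**Figure D2:**
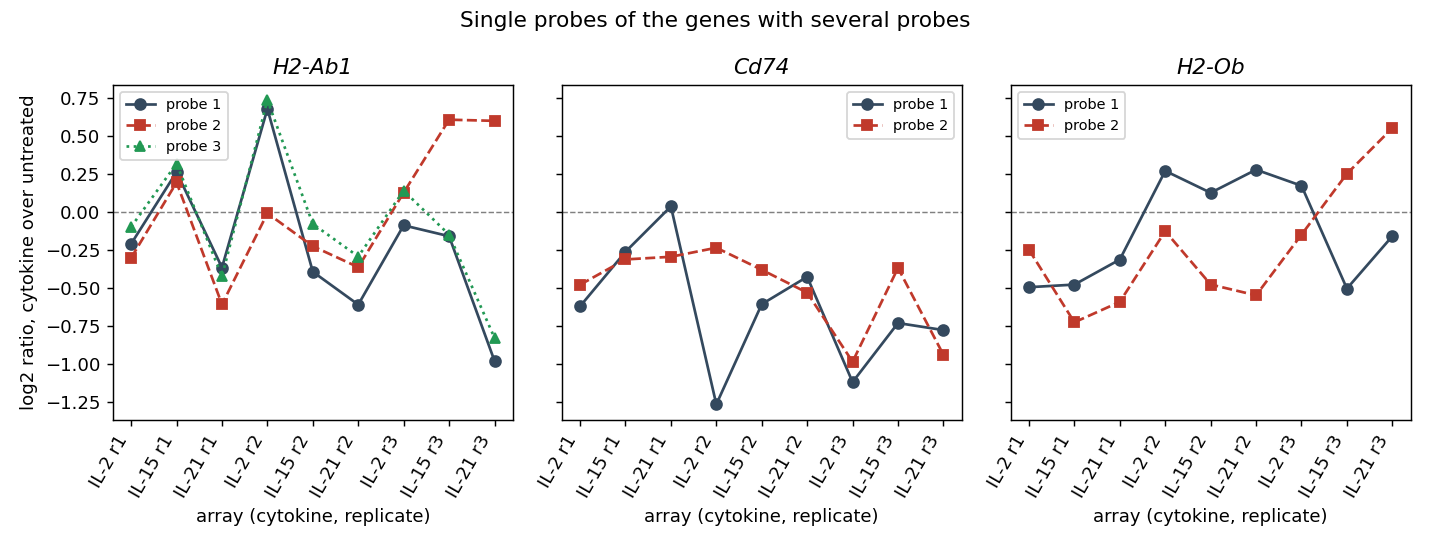
Log2 ratio, cytokine-treated over untreated cells, of each single probe of the class II genes with more than 1 probe, array by array; lines only link the values of a probe. Probes 1 and 3 of H2-Ab1 run together, probe 2 lies apart from them on IL-2 replicate 2 and on replicate 3 of IL-15 and IL-21, and the probes of Cd74 lie farthest apart on IL-2 replicate 2, at -1.27 and -0.24.

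Ciita, the coactivator on which class II transcription depends, stayed near 0 on 8 of 9 arrays. Those 8 values ran from -0.23 to 0.33. On IL-2 replicate 2 the single Ciita probe read 6.20, while IL-2 replicates 1 and 3 had -0.19 and -0.23. With IL-15 it had -0.08, -0.0047 and -0.22, and with IL-21 -0.03, 0.33 and -0.04.

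On IL-2 replicate 2, 21 of 17498 genes, Ciita included, were at or above 6.20 and 44 were above 4, so that the Ciita value was not alone on that array. The IL-2 mean was 1.92 ± 1.03 (SE, n = 3 arrays, limma adjusted p = 0.694), and without that array it was -0.21. H2-Aa was at -1.95 on the same array, its lowest value of the 9. The group means of Ciita were -0.10 ± 1.03 for IL-15 and 0.09 ± 1.03 for IL-21 (limma SE, n = 3 arrays), an error that includes that single value.

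The H2-DM genes, which encode the peptide exchange factor, did not change together. H2-DMa, the alpha chain, had -0.02, -0.49 and -0.25 with IL-2 and -0.09, 0.60 and 0.65 with IL-15 in replicates 1, 2 and 3, against -0.03, 0.06 and 0.04 with IL-21. In replicates 2 and 3 IL-15 was the highest and IL-2 the lowest, and in replicate 1 all 3 values lay within 0.07 of each other. The IL-15 mean was 0.39 ± 0.16 (SE, limma adjusted p = 0.66), the IL-2 mean -0.25 ± 0.16 (adjusted p = 0.792) and the IL-21 mean 0.02 ± 0.16 (adjusted p = 0.989). IL-15 lay above IL-2 by 0.64 ± 0.23 (SE, limma adjusted p = 0.9997, or 0.898 with the block).

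H2-DMb1, the beta chain, ran from -0.59 to 0.15. It had -0.06, 0.15 and -0.36 with IL-2, 0.05, -0.24 and -0.53 with IL-15 and 0.02, -0.03 and -0.59 with IL-21. Replicate 3 held the lowest value for each cytokine, and the cytokines overlapped. The means were -0.09 ± 0.17, -0.24 ± 0.17 and -0.20 ± 0.17 for IL-2, for IL-15 and for IL-21 (limma SE, n = 3 arrays), with adjusted p of 0.967, 0.898 and 0.888.

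H2-Oa and H2-Ob encode the alpha and beta chains of H2-O, the inhibitor of H2-DM, which in the mouse is known from B cells, some dendritic cells and thymic epithelium. H2-Oa was lowest after IL-21, at -0.64, -0.92 and -1.62 in replicates 1, 2 and 3. With IL-2 it was -0.40, -0.37 and -0.41, and with IL-15 it was -0.76, -0.08 and 0.25. The IL-2 values lay together, all above the IL-21 values, and IL-15 ranged from below IL-21 replicate 1 to above 0.

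The IL-21 mean of H2-Oa was -1.06 ± 0.22 (SE, n = 3 arrays, limma adjusted p = 0.321, or 0.184 with the block), and its unadjusted p ranked 55 among 17498 genes. It was -0.40 ± 0.22 for IL-2 (SE, limma adjusted p = 0.723) and -0.20 ± 0.22 for IL-15 (SE, limma adjusted p = 0.968). IL-21 was below IL-2 in each replicate, with differences of -0.24, -0.55 and -1.21, and the mean difference was -0.67 ± 0.31 (SE, limma adjusted p = 0.878). Against IL-15 the difference was -0.87 ± 0.31 (SE, limma adjusted p = 0.724), and by replicate it was 0.11, -0.85 and -1.86.

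H2-Ob had means of -0.10 ± 0.17, -0.30 ± 0.17 and -0.13 ± 0.17 for IL-2, for IL-15 and for IL-21 (limma SE, n = 3 arrays; adjusted p 0.959, 0.823 and 0.927). With IL-2 it had -0.37, 0.07 and 0.01, with IL-15 -0.60, -0.18 and -0.13, and with IL-21 -0.45, -0.13 and 0.20 in replicates 1, 2 and 3. Replicate 1 was the lowest for each cytokine, and within each replicate IL-15 was the lowest cytokine. Its 2 probes correlated at -0.075 and had opposite signs on every array of replicates 2 and 3, so the gene mean is a poor summary.

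**Figure D3:**
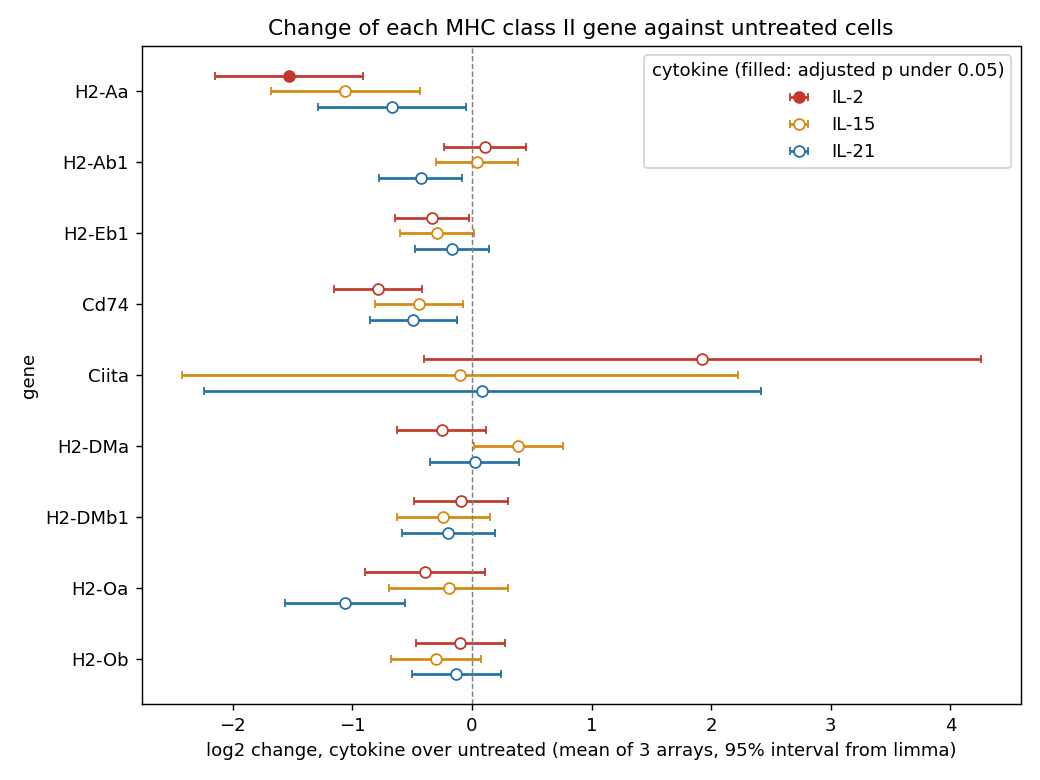
Mean log2 change of each class II gene for each cytokine against untreated cells, with limma's 95% interval over 3 arrays; a filled point marks an adjusted p under 0.05. H2-Aa with IL-2 is the only filled point, and the interval of Ciita is the widest because of 1 array.

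Counted together, 7 of the 9 genes had a mean below 0 for each cytokine, but few passed. Of all 17498 genes, 7141 had a mean below 0 for IL-2, 8675 for IL-15 and 8633 for IL-21. The median of the 9 changes was -0.25 for IL-2, -0.24 for IL-15 and -0.20 for IL-21, against 0.05, 0.00 and 0.00 over all genes. The 3 comparisons may share untreated RNA within a replicate, which the labels do not state, so they are given side by side only.

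With IL-2, 1 of 9 genes was called lower in limma at an adjusted p of 0.05, H2-Aa. With the fixed replicate block 2 of 9 were called lower, H2-Aa and Cd74, against 0.223% of all genes. With the replicate as a random effect H2-Aa alone was called lower (adjusted p = 0.0258), against 0.0286% of all genes. At an unadjusted p under 0.05, 3 of 9 were lower, H2-Aa, Cd74 and H2-Eb1, against 2.05% of all genes.

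With IL-15 limma called 0 of 9 genes, where 0.126% of all genes were called in either direction. With the fixed block H2-Aa alone was called lower, against 0.0743% of all genes, and with the random effect 0 of 9 were, where 0% of all genes were lower. At an unadjusted p under 0.05, H2-Aa and Cd74 were lower, against 2.15% of all genes, and H2-DMa was higher, against 5.1%.

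With IL-21 limma called 0 of 9 genes, where it called 0 genes in all (0%), and with the block again 0 of 9, where 0.131% of all genes were called. At an unadjusted p under 0.05, 4 of 9 were lower, H2-Oa, Cd74, H2-Ab1 and H2-Aa, against 3.43% of all genes.

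Between cytokines limma called none of the 9 genes, with or without the block. The percent of all genes called without it was 0.08% for IL-21 versus IL-2, 0.0171% for IL-21 versus IL-15 and 0% for IL-15 versus IL-2. With the block it was 0.526%, 0.183% and 0%. At an unadjusted p under 0.05, H2-Ab1 was lower with IL-21 than with IL-2 (4.46% of all genes were lower), H2-Oa was lower with IL-21 than with IL-15 (3.61%), and H2-DMa was higher with IL-15 than with IL-2 (0.497% were higher).

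Differences taken within a replicate had one sign in all 3 replicates for some class II genes, without a test, and for the lower direction no more often than over all genes. From IL-2 to IL-21, H2-Aa, H2-Eb1 and Cd74 were higher in all 3 replicates, as were 13.1% of all genes, and H2-Ab1 and H2-Oa were lower in all 3, as were 23.2%. From IL-15 to IL-21, H2-Aa, H2-Eb1, Ciita and H2-Ob were higher in all 3 (16.4% of all genes) and H2-Ab1 was lower in all 3 (20.4%). From IL-2 to IL-15, H2-Aa and Cd74 were higher in all 3 (9.72%) and H2-Ob was lower in all 3 (15.4%). For Cd74 the differences between IL-2 and IL-21 were 0.42, 0.27 and 0.19 in replicates 1, 2 and 3, and for H2-Eb1 they were 0.11, 0.17 and 0.24. H2-Aa and H2-Ab1, whose products pair as I-A, had opposite signs from IL-2 to IL-21, and neither difference passed.

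Across the 9 arrays H2-Aa correlated with Cd74 at 0.823, with H2-Eb1 at 0.627 and with H2-Ab1 at -0.585. With each replicate's mean subtracted these became 0.735, 0.77 and -0.763. Arrays of a replicate share, per the series design text, their dye orientation, so these values describe the 9 arrays and were not tested.

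The genes whose ratios were most like the mean of H2-Aa, H2-Ab1 and H2-Eb1 over the 9 arrays are named without a test. That mean joins H2-Aa and H2-Ab1, which correlated with each other at -0.585. None of the named genes was on the lists of class II pathway genes used here. Those lists hold few of the 17498 genes, so this is no finding. As deposited, the closest were Fbxo6, an F-box protein gene, at a correlation of 0.97, Nudt16l1 at 0.97 and Tmem208 at 0.96, followed by Abcf2, Gli2, Pdxp, Rcl1, Mcrip1, Chst13 and Nudt9 at 0.95 each. With replicate means subtracted the 10 closest were Parp6, Vat1l, Fbxo6, Nudt16l1, Apmap, Rnf133, Casq1, Sra1, Krt87 and Epn3, at 0.95 to 0.91, and 2 genes, Fbxo6 and Nudt16l1, stood in both groups of 10. Among the class II genes Cd74 came to 0.88 as deposited, behind 179 other genes, and H2-Ab1, itself part of the mean, to -0.09.

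Regulators of class II transcription showed no called change, and few genes did over all. Of all 17498 genes limma called 7 lower and 133 higher with IL-2, 22 with IL-15 and 0 with IL-21. A count of 0 in this list or in those below lies near that share. Of 17 measured genes of the RFX, NF-Y and CREB factors and of Ciita regulation, 0 were called for any cytokine against untreated cells, and their medians were -0.01, 0.07 and -0.11 for IL-2, for IL-15 and for IL-21. Irf8, a transcription factor of dendritic cells and B cells that also acts in T cells, had -1.31, -1.27 and -1.48 with IL-21 in replicates 1, 2 and 3, a mean of -1.35 ± 0.23 (SE, limma adjusted p = 0.183, or 0.062 with the block). Irf1, an activator of the interferon-responsive promoter of Ciita, had -0.12, -1.08 and -0.81 with IL-2, a mean of -0.67 ± 0.19 (SE, limma adjusted p = 0.217).

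Genes of the endosomal route were also uncalled, 0 of 14 measured for any cytokine, with medians of 0.12, 0.07 and -0.01. Ctss, the cathepsin that trims the invariant chain, had -0.01, -1.27 and -1.19 with IL-2 in replicates 1, 2 and 3, a mean of -0.82 ± 0.25 (SE, limma adjusted p = 0.266). Ctss and H2-Aa both had their IL-2 value nearest to 0 in replicate 1. Ifi30, a thiol reductase that unfolds antigen in endosomes, had a mean of 0.56 ± 0.16 with IL-2 (SE, limma adjusted p = 0.23), the opposite sign.

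The other genes of the class II region had medians above 0, where the medians of the class II genes were below 0. Psmb9, Psmb8 and Tap2, which serve class I presentation, lie between H2-DMb1 and H2-Ob, from 34182030 to 34216321 on chromosome 17. The 7 measured genes of the region that are not among the 9 had medians of 0.21, 0.24 and 0.21 for IL-2, for IL-15 and for IL-21, and 0 were called. With IL-2 0 of 7 were below 0, with IL-15 1, H2-Ea, and with IL-21 2, against 7141, 8675 and 8633 of all 17498 genes. Psmb8, an immunoproteasome subunit, had 0.55, 0.74 and 0.51 with IL-2 and 0.82, 0.80 and 0.46 with IL-15, all above 0 where H2-Aa was below 0. Its means were 0.60 ± 0.15 and 0.69 ± 0.15 (SE, limma adjusted p = 0.15 and 0.165, or 0.0449 and 0.0492 with the block). H2-Ea, the alpha chain gene of I-E, had 0.19, -0.06 and 1.88 with IL-2 and so rested on replicate 3.

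Class I presentation genes had medians of -0.14, 0.16 and -0.05 over 13 measured, with 0 called. At an unadjusted limma p under 0.05 with IL-2, 4 of the 13 were lower, against 2.05% of all genes, and 1 was higher. Among the lower ones, H2-K1 had 0.02, -0.91 and -0.89 with IL-2 in replicates 1, 2 and 3, and H2-T23 had 0.01, -0.82 and -0.87. Like H2-Aa, both had their IL-2 value nearest to 0 in replicate 1, so this is not particular to class II genes. Genes for costimulation by antigen presenting cells had medians of 0.05, 0.14 and -0.28 over 12, with 0 called. Cd83, which is made by activated lymphocytes and dendritic cells and whose protein is known to stabilise surface class II, had -1.03, -2.19 and -1.87 with IL-21, a mean of -1.70 ± 0.28 (SE, limma adjusted p = 0.177, or 0.0293 with the block). With IL-2 Cd83 had -0.23, -1.64 and -1.12, a mean of -0.99 ± 0.28 (SE, limma adjusted p = 0.232, or 0.0277 with the block).

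**Figure D4:**
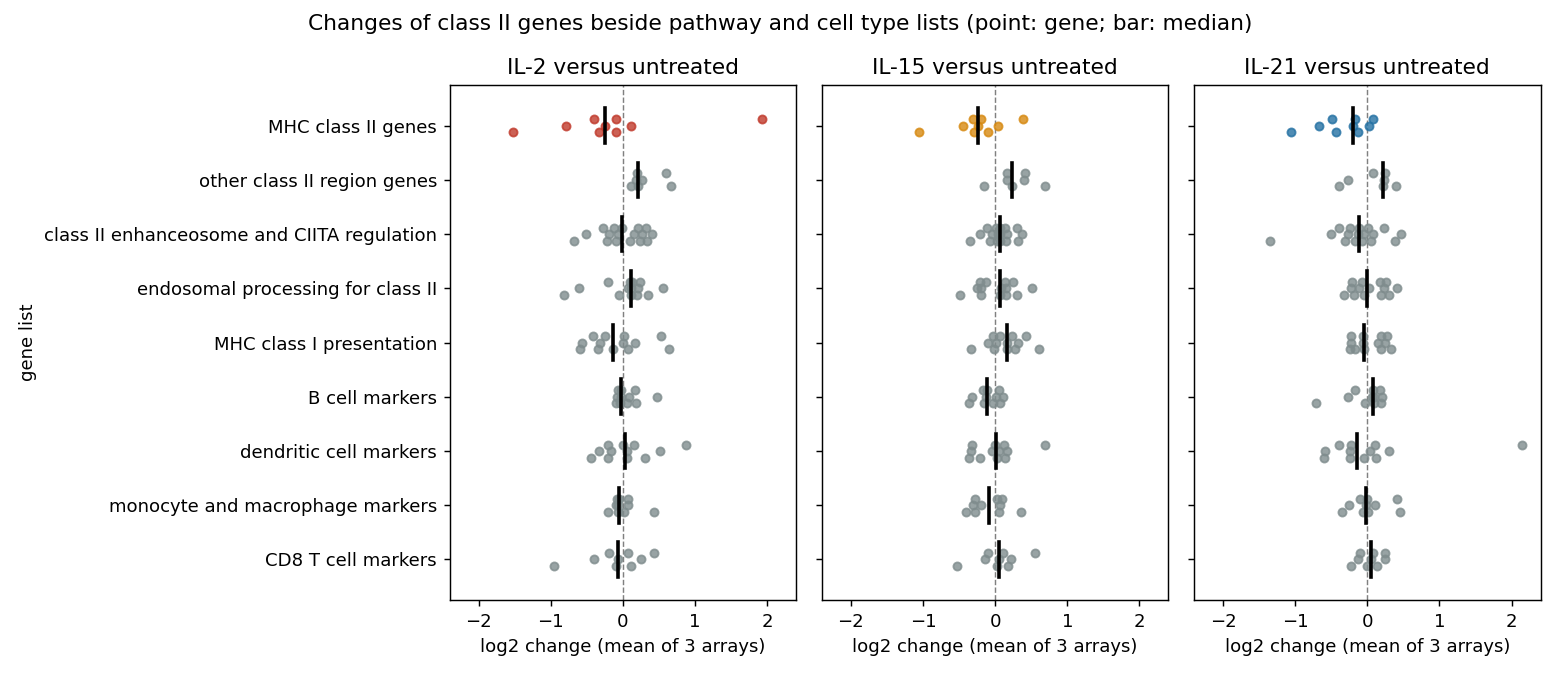
Mean log2 change against untreated cells of each measured gene (point) in the class II group and in 8 lists of related genes and cell type markers, with the median of each list as a bar. Class II medians of -0.25, -0.24 and -0.20 lie left of 0 for the 3 cytokines, and those of the other genes of the class II region, 0.21, 0.24 and 0.21, lie right of it.

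Since class II RNA in a CD8+ T cell culture can come from other cells, the markers of those cells are given beside it. None of 11 B cell, 12 dendritic cell and 10 monocyte and macrophage markers was called for any cytokine against untreated cells. Few of all genes were called, as given above, so this says little about the markers. Their medians were -0.02, 0.03 and -0.06 for IL-2, -0.11, 0.01 and -0.08 for IL-15 and 0.08, -0.14 and -0.01 for IL-21. The median of the 9 class II genes was -0.25, -0.24 and -0.20 for these cytokines. H2-Aa, the gene with the lowest mean after IL-2 and IL-15, had -1.53, -1.06 and -0.67.

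Array by array, the median of the B cell markers with IL-2 was -0.15, -0.10 and 0.43 in replicates 1, 2 and 3, that of the dendritic cell markers -0.16, -0.07 and 0.22, and that of the monocyte and macrophage markers -0.37, -0.0028 and 0.25. On the same arrays the median of the class II genes was -0.21, -0.18 and -0.36, and the single gene H2-Aa had -0.72, -1.95 and -1.90. Replicate 1 also differs from the others in dye orientation, per the series design text, and a link between H2-Aa and the markers was not tested. With IL-2 the mean was below 0 for 6 of 11 B cell, 5 of 12 dendritic cell and 6 of 10 monocyte and macrophage markers. It was below 0 for 7141 of all 17498 genes. Cd79b, a chain of the B cell receptor, had -0.29, -0.17 and 0.15 with IL-2, and Itgax, the CD11c gene of dendritic cells, -0.01, -0.13 and -0.37. The B cell marker Spib had -0.21, 0.95 and 0.68 with IL-2, and the dendritic cell marker Batf3 had 1.12, -0.07 and 1.58. A log ratio does not tell whether a marker was above background at all, so the part of such cells in the class II values was not tested. CD8 T cell markers had medians of -0.07, 0.05 and 0.06 over 9 genes, and 0 were called.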

How the data were processed

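RNA of treated and untreated mouse CD8+ T cells was amplified, labelled by amino allyl coupling and hybridised to 9 two-colour arrays, per the labels' protocols. The deposited table gives 1 value per probe and array for 36547 probes, without gaps, as the authors processed it. These deposited values, signed and running from -8.01 to 8.78, were read as log2 ratios. How the authors corrected and normalized them, and in which log base, is not given in the sources used here. With a natural log every log2 change would be too small by a constant factor. No intensities or levels came with them, so the number of arrays limits the precision.

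Probes with 1 symbol in the platform annotation (26926) were kept, those with several (203) or none (9418) were not named, and 41 viral or phage control probes were dropped. The mean over the probes of each gene gave 17498 genes. Promoter sequences and positions came from RefSeq, GRCm38.p6.

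The test was limma's moderated linear model (version 3.58.1, R 4.3.3) with 1 coefficient per cytokine, without a block or a dye term, in 6 two-sided comparisons, each adjusted by Benjamini-Hochberg over all genes at 0.05. The procedure was checked on simulated arrays with independent normal noise of each gene's own spread. These held no replicate or dye effect, so the check says nothing about p-values under such effects. Replicate numbers come from the titles, and the labels call the replicates biological. They pair the samples: deviations from the cytokine means correlated at 0.155 to 0.629 for every pair of one number. P-values measure the spread between these arrays.

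All 9 class II genes are named, with up to 4 genes of each related list by smallest p against untreated cells and the 10 most like genes. Only part of those list genes are printed. The genes and lists were chosen with earlier results of these data known. Some genes of these lists are not analysed here. Alternatives were the replicate as a fixed or random block, a dye term, replicates 2 and 3 with their sign turned, quantile normalization, median centring, the median of probes, single probes, and leaving out each replicate or array.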

Additional observations from a re-analysis of the deposited data

How the results depend on the processing

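The call of H2-Aa with IL-2 lay near the threshold, and its direction rests on the reading of the dyes. With IL-2 the count of called class II genes was 1, H2-Aa, and it was 0 with quantile normalization, with median centring, with each probe tested on its own and with the sign of replicates 2 and 3 turned. It was 2, H2-Aa and Cd74, with the fixed replicate block and with the dye term, 1 with the replicate as a random effect, and 0 to 1 when a replicate or an array was left out. With IL-15 the count was 0, also with the random effect, and 1, H2-Aa, with the fixed replicate block and with the dye term. The share of all genes called with the dye term was not counted, so its counts cannot be weighed against it. The replicate block rests on the pairing of arrays by number and changed no other call among the class II genes; it removes from the error what the arrays of a replicate share. Per the series design text, dye orientation separates replicate 1 from replicates 2 and 3, so the dye and these replicates cannot be told apart. The counts for IL-21 and between cytokines stayed at 0 under every alternative. The causes of these changes were not tested.

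Turning the sign of replicates 2 and 3 reversed 46 of the values. For IL-2 against untreated cells they were then 1.04 for H2-Aa, -0.24 for H2-Ab1, 0.20 for H2-Eb1, 0.42 for Cd74, -2.05 for Ciita, 0.24 for H2-DMa, 0.051 for H2-DMb1 and 0.13 for H2-Oa. IL-15 against untreated cells gave 0.66 for H2-Aa, 0.20 for H2-Eb1, 0.25 for Cd74, 0.047 for Ciita, -0.45 for H2-DMa and 0.27 for H2-DMb1. IL-21 against untreated cells gave 0.55 for H2-Aa, 0.12 for H2-Ab1, 0.096 for H2-Eb1, 0.40 for Cd74, -0.10 for Ciita, -0.042 for H2-DMa, 0.21 for H2-DMb1 and 0.63 for H2-Oa. IL-21 minus IL-2 gave -0.49 for H2-Aa, 0.36 for H2-Ab1, -0.099 for H2-Eb1, -0.015 for Cd74, 1.95 for Ciita, -0.28 for H2-DMa, 0.16 for H2-DMb1 and 0.51 for H2-Oa. IL-21 minus IL-15 gave -0.11 for H2-Aa, -0.10 for H2-Eb1, 0.15 for Cd74, -0.15 for Ciita, 0.40 for H2-DMa, -0.064 for H2-DMb1, 0.94 for H2-Oa and -0.071 for H2-Ob. IL-15 minus IL-2 gave -0.39 for H2-Aa, 0.37 for H2-Ab1, -0.17 for Cd74, 2.10 for Ciita, -0.68 for H2-DMa, 0.22 for H2-DMb1, -0.44 for H2-Oa and 0.052 for H2-Ob.

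Each other setting reversed fewer values. H2-Ab1 with IL-15 had -0.037 by the median of its probes. With the dye term Ciita and H2-DMa had -0.098 and -0.0014 with IL-21. H2-Ob for IL-21 against IL-2 had 0.022 with quantile normalization and 0.0077 with median centring. Leaving out a replicate or an array reversed others. For IL-2 against untreated cells H2-Ab1 ran from -0.071 to 0.26, Ciita ran from -0.21 to 3.00, H2-DMb1 ran from -0.21 to 0.043 and H2-Ob ran from -0.18 to 0.042. For IL-15 against untreated cells H2-Ab1 ran from -0.066 to 0.18 and H2-Oa ran from -0.42 to 0.085. For IL-21 against untreated cells Ciita ran from -0.035 to 0.15 and H2-Ob ran from -0.29 to 0.031. For IL-21 versus IL-2 Ciita ran from -2.92 to 0.30, H2-DMb1 ran from -0.24 to 0.088 and H2-Ob ran from -0.20 to 0.13. For IL-21 versus IL-15 Cd74 ran from -0.23 to 0.14 and H2-DMb1 ran from -0.10 to 0.24. For IL-15 versus IL-2 H2-Ab1 ran from -0.33 to 0.25, H2-Eb1 ran from -0.094 to 0.13, Ciita ran from -3.10 to 0.11 and H2-Oa ran from -0.029 to 0.48. Whether a probe was above background was not recorded in the ratios.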
